A study of Homo sapiens with 3 samples.

Results

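WNT antagonists and R-spondin signalling genes were examined in blood vessel organoids in which the neuronal transcription factor NEUROD1 was induced. The set held 10 genes of the 33538 gene identifiers counted: DKK1, DKK2, DKK3, SFRP1, SFRP2, FRZB, APCDD1, RSPO3, LGR5 and DACT1, found by gene symbol. They were chosen by their levels in these same libraries, in mesenchymal subtypes and in endothelial cells, which moved in opposite directions on induction. Their differences between libraries are therefore a description, with no test. The starting cells were human embryonic stem cells of the established line H1 with NEUROD1-P2A-GFP under doxycycline control, inserted by PiggyBac transposition. All organoids were harvested at day 45 and gave 3 single-cell libraries, 1 for each group: uninduced, induced for 15 days and induced for 45 days. Induced organoids received doxycycline at 1 µg/ml for those days, and all organoids, uninduced ones included, received BDNF and NT-3 from day 15. Which 15 of the days were induced is not in the labels, and a library pools 5 to 6 organoids of 1 cell line.

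WNT proteins bind Frizzled receptors together with the co-receptors LRP5 and LRP6, which keeps β-catenin from being degraded and lets it act with TCF and LEF factors in the nucleus. DKK1 and DKK2 bind the LRP co-receptors, the secreted Frizzled-related proteins SFRP1, SFRP2 and FRZB bind WNTs, and APCDD1 is a membrane protein that inhibits the pathway at the cell surface. R-spondins such as RSPO3 act in the other direction: with LGR receptors such as LGR5 they remove the ligases that take Frizzled off the cell surface. In mesenchyme and blood vessels this pathway takes part in patterning, vessel growth and the maturation of the endothelial barrier.

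After filtering, the uninduced library kept 8230 cells, the 15 day library 5078 and the 45 day library 8900, with 50727652, 44836782 and 54568022 UMIs (unique molecular identifiers, counted transcript molecules). The median cell had 5139, 7248.5 and 5542 UMIs in the same order. NEUROD1 was counted 77, 66 and 2420 times (1.52, 1.47 and 44.3 counts per 1e6 UMIs, CPM), so the library labelled 15 days was no higher than the uninduced one in NEUROD1 itself. At most 24 cell barcodes were shared by a pair of libraries. As each group has a single library, groups cannot be tested against each other, and every interval below is a 95% interval that covers counting error only. Levels are in CPM, and a gene was counted as different when the log2 ratio of CPM + 1 was at least 1 or at most -1 and it reached 10 CPM in 1 of the 2 libraries. A library-wide level cannot tell fewer cells of a type from less RNA per cell.

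The start-proximal sequence is shown for DKK1, which had the largest difference of level within clusters at 15 days, and for APCDD1, which was lower within clusters at both times, from RefSeq (GRCh38.p14), 5′ to 3′, from base -250 to base -51 before the start, both on the plus strand. Capitals mark the letters CTTTGA or their reverse complement TCAAAG, a form of the core recognised by TCF and LEF factors, searched on both strands. Other forms of that core were not searched.
DKK1 (chr10:52314031-52314230): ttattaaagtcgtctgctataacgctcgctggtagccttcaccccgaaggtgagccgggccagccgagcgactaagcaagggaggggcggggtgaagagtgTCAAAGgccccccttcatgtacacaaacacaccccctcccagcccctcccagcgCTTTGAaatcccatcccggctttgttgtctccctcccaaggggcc
APCDD1 (chr18:10454385-10454584): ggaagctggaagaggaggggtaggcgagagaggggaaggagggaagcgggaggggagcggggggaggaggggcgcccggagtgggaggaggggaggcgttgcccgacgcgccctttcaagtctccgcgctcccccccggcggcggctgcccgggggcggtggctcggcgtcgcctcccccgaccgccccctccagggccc
The DKK1 window held 2 matches, at -149 and -95, and the APCDD1 window held none. Over the windows of 300 bases (250 before and 50 after the start), 6 of the 10 genes had an entry (DKK1, SFRP2, FRZB, APCDD1, RSPO3 and DACT1). These 6 genes had 8 windows, 3 of them for DACT1. The letters were found in 2 of the 8 windows, that of DKK1 and 1 of those of DACT1, against 12.9% of 35116 promoter windows. CAGATG or CATCTG, an E-box of the kind NEUROD1 binds, was found in 1 of the 8, the same DACT1 window, against 14.7% of promoter windows. A match is a description of the letters and not a site of binding.

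In whole libraries the genes split into both directions. At 45 days against no induction, 1 of the 10 was at least 2-fold higher, where 2.5% of 9315 genes were, and 4 were at least 2-fold lower, where 1.92% were. At 15 days against no induction, 3 were higher (background 6.15% of 9693 genes) and 4 were lower (background 1.49%). At 45 days against 15 days, 9 of the 10 reached 10 CPM: SFRP2 was higher (background 0.392% of 9686 genes) and DKK1 was lower (background 2.86%). The first 2 comparisons share the uninduced library. The median log2 ratio of the 10 genes was -0.77 at 45 days and -0.58 at 15 days against no induction, while the median of all genes counted was 0.16 and 0.23.

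**Figure D1:**
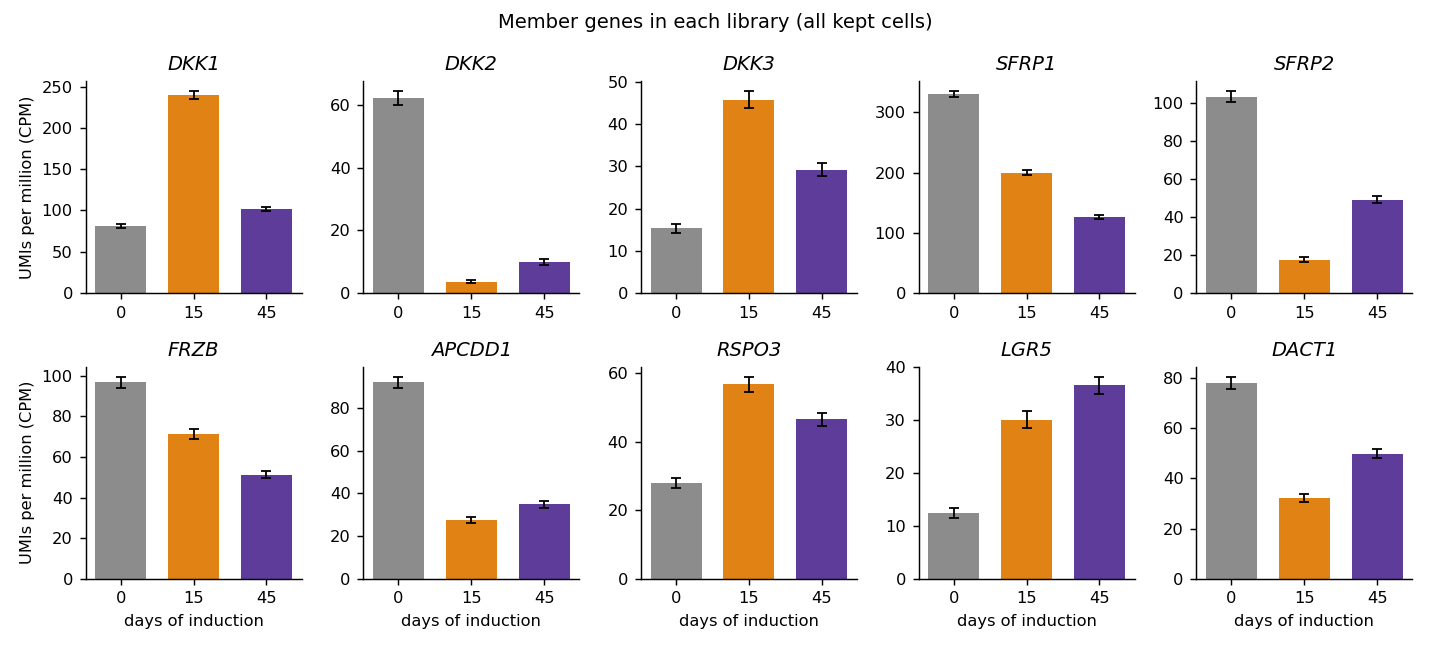
CPM (y axes, from 0, each with its own scale) of the 10 genes in the 3 libraries by days of induction (x axes), 1 bar per library; black bars are 95% Poisson intervals, counting error only. DKK1, DKK3 and RSPO3 stand highest at 15 days, LGR5 at 45 days, and the other 6 genes without induction.

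Among the Dickkopf genes, DKK1 and DKK2 went opposite ways although their proteins bind the same co-receptors. DKK1 (ENSG00000107984, chromosome 10, 52314296 to 52318042, GRCh38) stood at 81.1 CPM in the uninduced library (78.7 to 83.7), 239.8 CPM after 15 days (235.3 to 244.4) and 101.6 CPM after 45 days (98.96 to 104.3). Only the 15 day library stood far above the others: 2.96-fold over no induction (2.85 to 3.06), against 1.25-fold at 45 days (1.20 to 1.30). DKK2 (ENSG00000155011, chromosome 4, 106921802 to 107283806) stood at 62.2 CPM in the uninduced library (60.1 to 64.4), 3.68 CPM after 15 days (3.14 to 4.29) and 9.91 CPM after 45 days (9.10 to 10.8). It was 16.9 times lower at 15 days (14.5 to 19.9) and 6.28 times lower at 45 days (5.73 to 6.89) than without induction. DKK3 (ENSG00000050165, chromosome 11, 11963106 to 12009769), a divergent relative whose effect on WNT signalling depends on the cell, had 15.3 CPM in the uninduced library (14.2 to 16.4), 45.7 CPM after 15 days (43.8 to 47.8) and 29.2 CPM after 45 days (27.8 to 30.7).

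Of the 3 secreted Frizzled-related genes, SFRP2 was at least 2-fold lower in both induced libraries, SFRP1 at 45 days alone and FRZB in neither. SFRP1 (ENSG00000104332, chromosome 8, 41261958 to 41309497) stood at 330.3 CPM in the uninduced library (325.3 to 335.3), 199.5 CPM after 15 days (195.4 to 203.7) and 126 CPM after 45 days (123 to 129), with log2 ratios to the uninduced library of -0.72 at 15 days and -1.38 at 45 days. SFRP2 (ENSG00000145423, chromosome 4, 153780592 to 153789120) stood at 103 CPM (100.4 to 106), 17.5 CPM (16.3 to 18.7) and 48.9 CPM (47.1 to 50.8) in the same order. It was 5.91 times lower at 15 days (5.48 to 6.38) and 2.11 times lower at 45 days (2.01 to 2.21) than without induction. FRZB (ENSG00000162998, chromosome 2, 182833275 to 182867162) stood at 96.8 CPM (94.1 to 99.5), 71.5 CPM (69.0 to 74.0) and 51.3 CPM (49.5 to 53.3), with no fold of 2 in either comparison with the uninduced library.

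APCDD1 (ENSG00000154856, chromosome 18, 10454628 to 10489948), itself a target of the pathway it inhibits, stood at 91.8 CPM in the uninduced library (89.2 to 94.5), 27.4 CPM after 15 days (25.9 to 29.01) and 34.8 CPM after 45 days (33.3 to 36.4). It was 3.35 times lower at 15 days (3.14 to 3.57) and 2.64 times lower at 45 days (2.50 to 2.78) than without induction. DACT1 (ENSG00000165617, chromosome 14, 58633967 to 58648321), which binds Dishevelled inside the cell, stood at 78.1 CPM (75.7 to 80.6), 32.2 CPM (30.6 to 33.9) and 49.9 CPM (48.1 to 51.8) in the same order. Of the agonist-side genes, LGR5 was at least 2-fold higher in both induced libraries and RSPO3 in neither by the count used here. RSPO3 (ENSG00000146374, chromosome 6, 127118604 to 127197765) stood at 27.9 CPM (26.4 to 29.3), 56.7 CPM (54.5 to 58.9) and 46.5 CPM (44.7 to 48.3), 2.03-fold higher at 15 days (1.91 to 2.17), with a log2 ratio of 1.00 that lay just under the count's limit. LGR5 (ENSG00000139292, chromosome 12, 71439770 to 71586310) stood at 12.4 CPM (11.4 to 13.4), 30.0 CPM (28.4 to 31.6) and 36.5 CPM (34.9 to 38.2), which is 2.43-fold at 15 days (2.20 to 2.67) and 2.95-fold at 45 days (2.70 to 3.24) over no induction.

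Cells were clustered without the 10 genes and without the other WNT genes listed here, so a cell's cluster was found without them. Most UMIs of each gene came from mesenchymal-like cells, except that for DKK3 the share was 37.4% without induction and 34.4% at 15 days (52.6% at 45 days). These cells made up 72.7% of uninduced cells, 61.3% of the 15 day library and 72.1% of the 45 day library. These cells lay in different clusters by library: clusters 1, 6 and 3 were the largest without induction, clusters 0 and 4 at 15 days, and clusters 0 and 2 at 45 days. Clusters 1 and 6 met 4 and 7 of the 12 mesenchymal markers. Clusters 0, 2, 3 and 4 met no class list and were named by the rule for clusters left over. In the mesenchymal-like cells 8 of the 12 markers were at least 2-fold above other cells without induction, 10 after 15 days and 7 after 45 days. The 12 markers summed to 13784 CPM in these cells in the uninduced library, 5099 CPM after 15 days and 5391 CPM after 45 days. The part of this in the results was not tested. The share of cells with a UMI in haematopoietic-like cells, which should lack these genes, served as the background of free RNA. For APCDD1 it was 2.90% of 69 uninduced cells, 0 of 97 after 15 days and 4.65% of 86 after 45 days (medians of 4104, 6765 and 5120.5 UMIs). In mesenchymal-like cells the APCDD1 share was 26.8%, 14.6% and 15.2% (medians of 4799, 6880 and 5292 UMIs).

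**Figure D2:**
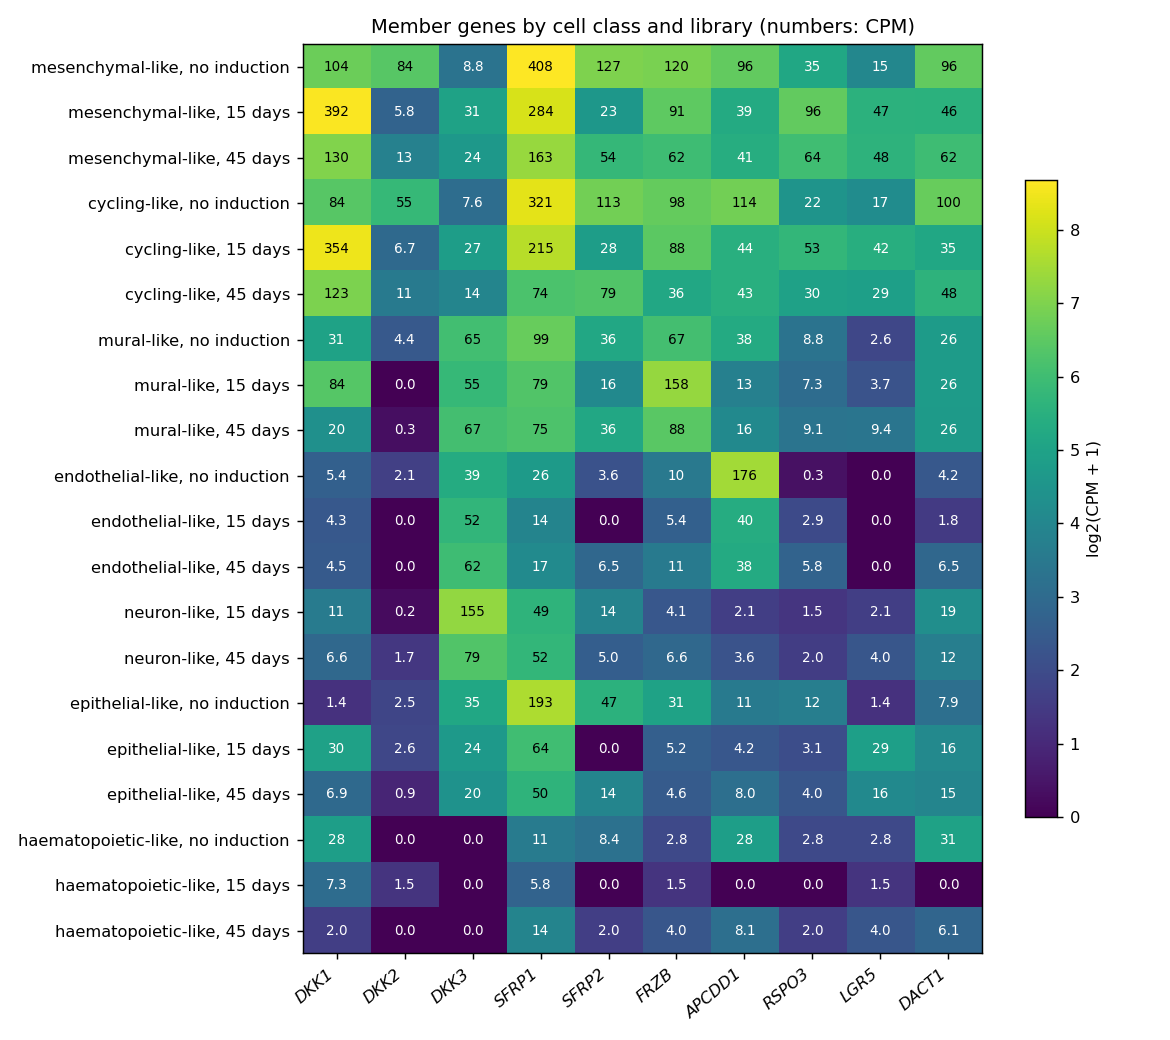
Level of the 10 genes (columns) in each named cell class and library (rows), with the colour on a log2(CPM + 1) scale and the CPM printed in each cell. No neuron-like cells were found without induction. APCDD1 stands at 176 CPM in uninduced endothelial-like cells and at 40.0 and 38.3 CPM at 15 and 45 days; LGR5 is at 0 in all 3 endothelial rows.

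Within mesenchymal-like cells alone, 2 genes (DKK3, LGR5) were at least 2-fold higher at 45 days than without induction and 4 (DKK2, SFRP1, SFRP2, APCDD1) were lower, beside 1.72% and 1.83% of 8735 genes. At 15 days, 4 (DKK1, DKK3, RSPO3, LGR5) were higher and 4 (DKK2, SFRP2, APCDD1, DACT1) were lower, beside 3.45% and 1.84% of 8803 genes. RSPO3, which missed the limit in the whole library, stood at 34.9 CPM in the uninduced library, 95.9 CPM after 15 days and 64.4 CPM after 45 days in these cells. LGR5 stood at 15.0, 46.8 and 48.1 CPM in the same order, so the 15 and 45 day libraries did not differ by more than counting error there (1.03-fold at 45 days over 15 days, 0.95 to 1.11). At 45 days against 15 days, 2 (DKK2, SFRP2) were higher and 1 (DKK1) was lower, beside 0.418% and 0.667% of 8844 genes.

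DKK1 at 15 days was higher within most mesenchymal-like clusters. In cluster 2, led by the LIM homeobox genes LHX9 and LHX2, DKK1 stood at 299 CPM in the uninduced library, 1575 CPM after 15 days and 326 CPM after 45 days. In cluster 0, led by CLDN11 and PTGFR, it stood at 83.7, 480.0 and 66.5 CPM in the same order. Its ratio at 15 days to no induction was 2 or more in 6 of the 9 mesenchymal-like clusters with at least 50 cells in both libraries, and it was lower by at least 2-fold in 1, cluster 3. Clusters of 1 library are not replicates. The difference in CPM between the 15 day and uninduced libraries was also split by arithmetic. The weight of a cluster was its share of the library's UMIs, so it takes in both cell number and RNA per cell. Cluster 18, for example, held 5.10% of uninduced cells and 10.6% of their UMIs. A cluster with under 20 cells in only 1 of the 2 libraries took the other library's level, so it could add to the weights alone. The level within clusters gave 183 CPM and the weights of the clusters gave a net -24.5 CPM. That net holds terms of both signs: the weight of cluster 0 alone gave 43.4 CPM.

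DKK2 showed the opposite arrangement, since it was concentrated in clusters that the induced libraries barely held. Without induction, 35.0% of its UMIs lay in cluster 18 (led by COL15A1 and FMOD, matrix genes) and 31.6% in cluster 6 (with C1QTNF7 and FABP7 among its leading genes). Cluster 18 had 420 uninduced cells, 2 after 15 days and 31 after 45 days, and cluster 6 had 1018, 0 and 142. Where cluster 6 could be compared, DKK2 stood at 114 CPM at 45 days and 190.1 CPM without induction. By the same split, cluster weights gave -51.0 CPM and the level within clusters -7.24 CPM of its difference at 15 days. Clusters 6 and 18 could add to the weights alone in that comparison. At 45 days, where both had cells enough for a level, weights gave -33.6 CPM and level -18.7 CPM. A cluster held mostly by 1 library may be that library and not a cell type, so weight and level cannot be told apart there.

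**Figure D3:**
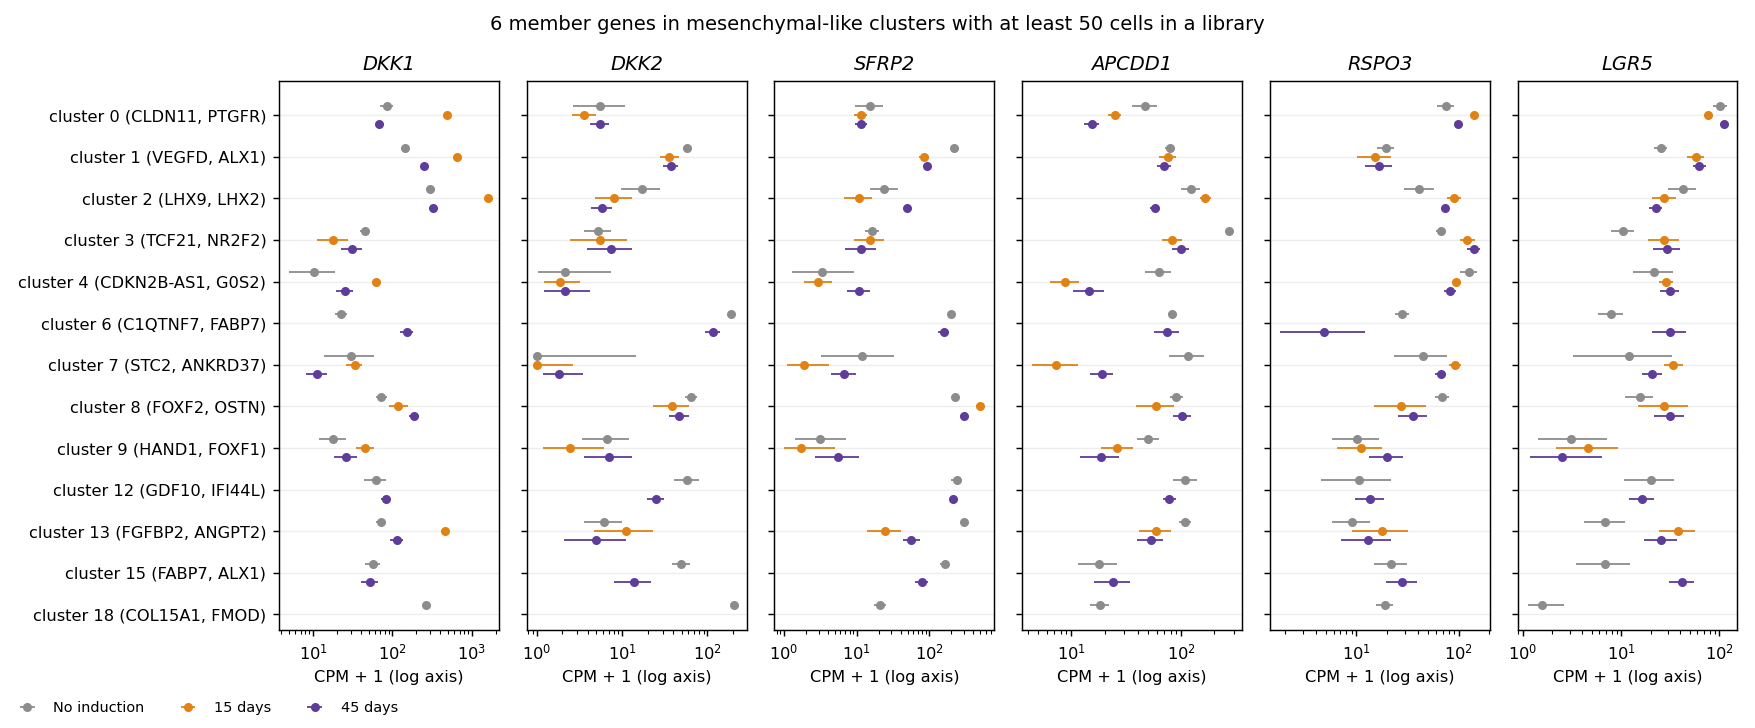
CPM + 1 (log axes) of 6 of the genes in each mesenchymal-like cluster, named by number and 2 leading genes, 1 point per library with at least 50 cells there; lines are 95% Poisson intervals, counting error only. DKK1 at 15 days lies to the right of the other libraries in clusters 0, 1, 2 and 13, and DKK2 is highest in clusters 6 and 18.

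For SFRP1, SFRP2, FRZB and DACT1 at 15 days the weight term of the split was the larger one, and its largest part came from clusters 6 and 18, where weight and level cannot be told apart. Cluster 6 gave -63.8 CPM for SFRP1, -20.4 CPM for SFRP2 and -24.5 CPM for DACT1, and cluster 18 gave -25.9 CPM for FRZB. For SFRP1 at 15 days against no induction, weights gave -123 CPM and level -6.95 CPM, and 6 of 9 mesenchymal-like clusters had the higher level at 15 days. At 45 days the SFRP1 level within clusters gave -117 CPM of the difference, with the lowest ratio in cluster 6, at 92.8 CPM at 45 days and 616 CPM without induction. SFRP2 was lower in cluster 13, led by FGFBP2 and ANGPT2: 299 CPM in the uninduced library, 23.6 CPM after 15 days and 55.4 CPM after 45 days. Cluster 13 met no class list and was named by the rule for clusters left over. The mural marker RGS5 was among its leading genes within the mesenchymal-like clusters. SFRP2 was higher in cluster 8, led by FOXF2: 225, 495.5 and 292 CPM without induction, at 15 and at 45 days. DACT1 at 45 days against no induction was 0.64-fold in the whole library, yet its level was higher in 8 of 12 mesenchymal-like clusters, and weights gave -28.9 CPM of a difference of -28.2 CPM.

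**Figure D4:**
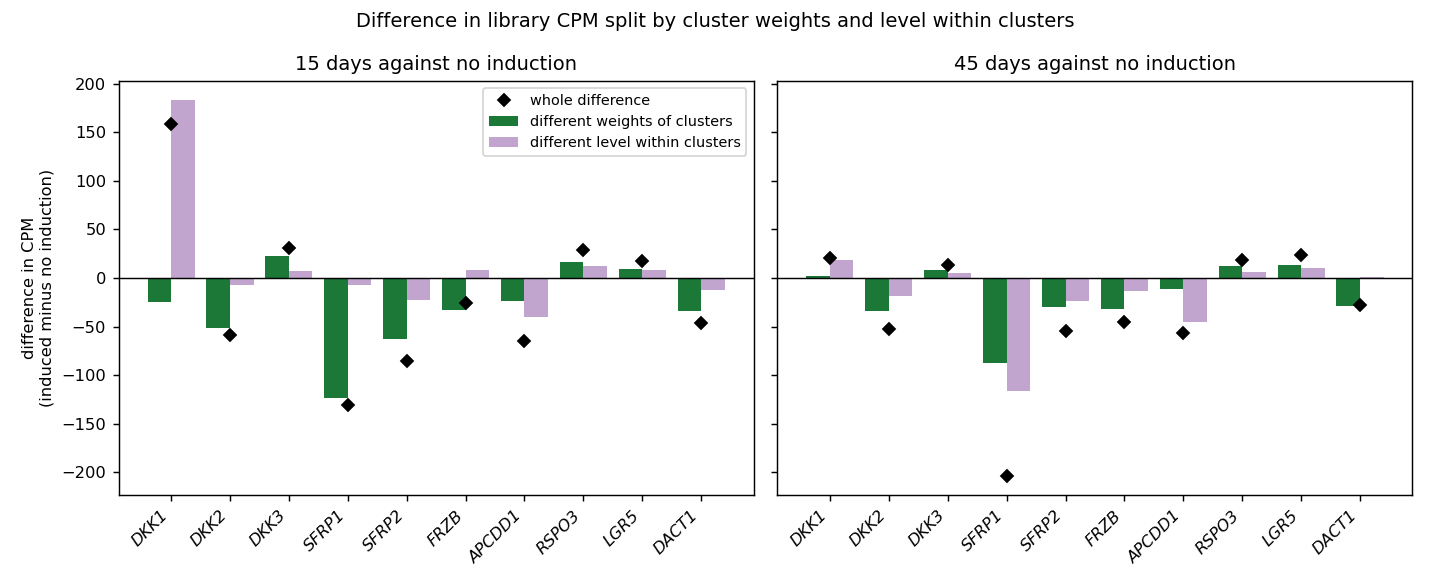
Difference in library CPM (y axis, induced minus no induction) for each gene at 15 days (left) and 45 days (right), with green bars for the different weights (shares of UMIs) of the 28 clusters, pale bars for the different level within clusters, and diamonds for the whole difference. A cluster with under 20 cells in only 1 of the 2 libraries took the other library's level, so it could add to weights alone. DKK1 at 15 days has the larger bar in level (183 CPM) and SFRP1 at 15 days in weights (-123 CPM). Of the latter, cluster 6, with 0 cells at 15 days, gave -63.8 CPM, and there weight and level cannot be told apart.

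RSPO3 and LGR5 differed through both parts. Cluster 0 held 21.7% of LGR5 UMIs in the uninduced library, 45.8% after 15 days and 51.0% after 45 days, while it held 3.35%, 21.5% and 19.3% of cells. LGR5 within cluster 0 stood at 102, 76.0 and 111 CPM. Its ratio at 45 days to no induction was 2 or more in 6 other mesenchymal-like clusters of the 12 compared, among them cluster 15 (40.5 CPM at 45 days, 5.79 CPM without induction). RSPO3 in cluster 0 stood at 74.0 CPM in the uninduced library, 139.7 CPM after 15 days and 96.9 CPM after 45 days, and in cluster 3, led by TCF21, at 66.5, 121 and 139 CPM. In cluster 6 RSPO3 went the other way, at 3.81 CPM at 45 days and 27.0 CPM without induction.

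APCDD1 was lower in most mesenchymal-like clusters with at least 50 cells in both libraries. At 45 days against no induction it was lower in 10 of 12, by at least 2-fold in 7, and at 15 days in 8 of 9, by at least 2-fold in 3. It stood at 273 CPM in cluster 3 in the uninduced library, 81.8 CPM after 15 days and 97.6 CPM after 45 days. Of its library difference at 45 days, the level within clusters gave -45.3 CPM and cluster weights -11.7 CPM. In mural-like cells, the contractile cells around vessels, APCDD1 stood at 38.2 CPM in the uninduced library, 12.7 CPM after 15 days and 16.4 CPM after 45 days. In haematopoietic-like cells, the background, APCDD1 was also lower on induction: 28.0 CPM in the uninduced library (10 UMIs, 8 of them in 1 cell), 0 after 15 days and 8.08 CPM after 45 days (4 UMIs). The part of free RNA in the mural-like difference was not tested.

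In endothelial-like cells, in which 14 of the 15 endothelial markers were at least 2-fold above other cells in each library, APCDD1 was the gene of the set that differed. It stood at 176 CPM in the uninduced library (162 to 191, 588 UMIs in 455 cells), 40.0 CPM after 15 days (33.0 to 48.2, 112 UMIs in 325 cells) and 38.3 CPM after 45 days (29.2 to 49.4, 59 UMIs in 237 cells). That is 4.4 times lower at 15 days (3.59 to 5.44) and 4.6 times lower at 45 days (3.51 to 6.11) than without induction. The gap was present in both endothelial-like clusters: 213, 42.7 and 40.4 CPM in cluster 14 (PRND, ESM1), and 97.3, 32.5 and 27.7 CPM in cluster 19 (APLNR, NTS). APCDD1 was the 1 of 4 genes at 10 CPM counted as lower in each comparison with the uninduced library, beside 1.66% of 9473 genes lower at 45 days and 1.06% of 9407 at 15 days. None was counted as higher in these comparisons, beside 2.12% and 1.49% of genes, and none in either direction at 45 days against 15 days, beside 1.27% higher and 1.17% lower. DKK3 stood at 39.2 CPM in the uninduced library, 51.8 CPM after 15 days and 61.7 CPM after 45 days. LGR5 had no UMI in endothelial-like cells of any library, which allows up to 0.899 CPM in the uninduced library, 1.07 CPM after 15 days and 1.95 CPM after 45 days. Summed mesenchymal markers in these cells were 663 CPM in the uninduced library, 198 CPM after 15 days and 499 CPM after 45 days, and summed neuron markers were 46.4, 207 and 129 CPM; their part in the result was not tested.

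Other target genes of the pathway were counted in the same cells. In the whole library 0 of 9 target genes at 10 CPM were higher at 15 days, beside 6.15% of genes. There 4 were lower (AXIN2, NKD1, NKD2 and TNFRSF19), beside 1.49%, with a median log2 ratio of -0.98 beside 0.23 over all genes. At 45 days 0 were higher and 0 were lower, beside 2.5% and 1.92%, with a median of -0.43 beside 0.16. In mesenchymal-like cells the same 4 of 9 were lower at 15 days, beside 1.84%, and 0 of 9 differed at 45 days. TCF7 stood higher there, at 11.8, 15.6 and 19.1 CPM without induction, at 15 and at 45 days, and CCND1 at 141, 260 and 191 CPM. Over all cells AXIN2, a feedback inhibitor that marks β-catenin activity, stood at 16.5 CPM in the uninduced library, 3.66 CPM after 15 days and 7.92 CPM after 45 days, the last just short of the limit (log2 ratio -0.97). In mesenchymal-like cells it stood at 18.8, 4.51 and 9.04 CPM in the same order. In endothelial-like cells AXIN2 and LEF1, 2 of 6 target genes at 10 CPM, were lower in both comparisons with the uninduced library. The share over all genes was 1.06% at 15 days and 1.66% at 45 days. AXIN2 stood there at 16.5 CPM in the uninduced library (55 UMIs), 4.29 CPM after 15 days (12 UMIs) and 5.2 CPM after 45 days (8 UMIs). LEF1, the TCF-family factor, stood at 21.6 CPM (72 UMIs), 9.29 CPM (26 UMIs) and 3.25 CPM (5 UMIs). CCND1, the cyclin D1 gene, went the other way in endothelial-like cells at 70.4, 158 and 123 CPM. It was counted as higher at 15 days (1 of 6, beside 1.49% of genes) and not at 45 days. In mural-like cells 0 of 6 target genes were counted as different in any comparison.

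**Figure D5:**
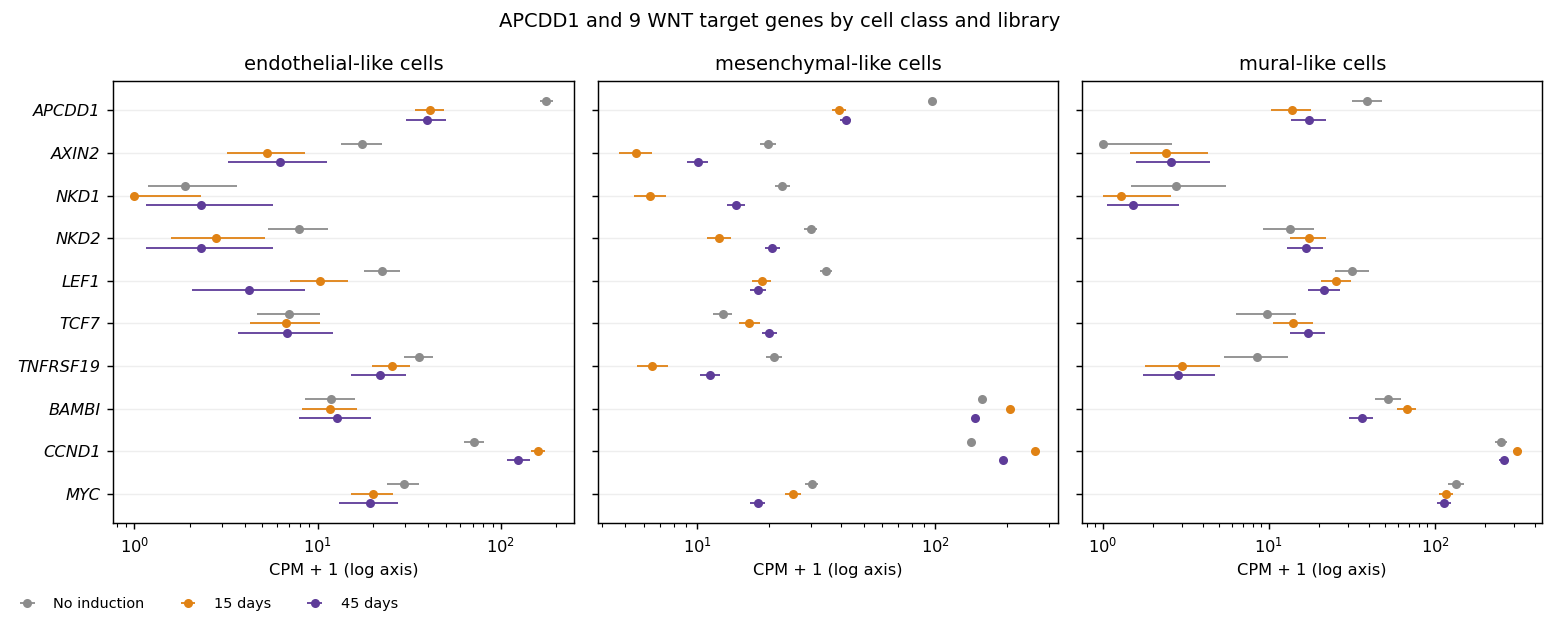
CPM + 1 (log axes, each with its own range) of APCDD1 and of the 9 WNT target genes that reached 10 CPM in 1 of the 3 classes, by class and library; lines are 95% Poisson intervals, counting error only. APCDD1, AXIN2 and LEF1 lie lower in both induced libraries in endothelial-like and mesenchymal-like cells, and AXIN2 is near 0 in mural-like cells.

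Other genes of the pathway were counted in the same way. Of 19 WNT ligands, 7 reached 10 CPM at 45 days against no induction. Of these, 3 were lower (WNT2B, WNT5B and WNT6), beside 1.92% of all genes. At 15 days 4 of 6 were lower, the same 3 and WNT4, beside 1.49%. None was higher in either comparison, beside 2.5% at 45 days and 6.15% at 15 days. In mesenchymal-like cells WNT2B and WNT5B alone were lower (2 of 4 in each comparison), beside 1.83% of genes at 45 days and 1.84% at 15 days. In endothelial-like and in mural-like cells only 1 of the 19 ligands reached 10 CPM, and it was not counted as different. WNT6 stood at 53.1 CPM in the uninduced library, 14.6 CPM after 15 days and 22.9 CPM after 45 days. It was a leading gene of the epithelial-like cluster 21, with 260, 12 and 38 cells in the same order. WNT5A, the ligand with the most UMIs at 45 days, stood at 45.1, 41.7 and 62.1 CPM. Among receptors, FZD4, FZD5 and FZD8 were higher at 15 days (3 of 15, beside 6.15% of genes). At 45 days 0 of 13 differed, beside 2.5% higher and 1.92% lower. In mesenchymal-like cells FZD8 alone was higher at 15 days (1 of 12, beside 3.45%), as in endothelial-like cells (1 of 11, beside 1.49%). In mural-like cells at 15 days 0 of 11 were higher, beside 2.42%, and FZD7 was lower (1 of 11, beside 2.29%). At 45 days LRP5 was lower in endothelial-like cells (1 of 12, beside 1.66%) and FZD1 higher in mural-like cells (1 of 11, beside 2.59%). FZD5 was at 1.64 CPM in the uninduced library, 16.6 CPM after 15 days and 0.990 CPM after 45 days, and it was the 1 receptor lower at 45 days than at 15 days. LGR4, the receptor related to LGR5 and the 1 gene of 7 in the R-spondin module to reach 10 CPM, stood at 21.4, 29.6 and 20.2 CPM. Of 16 other antagonists 7 reached 10 CPM at 45 days against no induction, among them DACT3, and of 13 intracellular genes 12 did, among them CSNK1A1; 0 of either list were counted as different in the 3 comparisons.

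Outside mesenchyme and endothelium, genes of the set also differed in other classes. In epithelial-like cells SFRP1 stood at 193 CPM in the uninduced library, 63.5 CPM after 15 days and 49.5 CPM after 45 days. SFRP2 stood there at 46.7, 0 and 14.3 CPM, and FRZB at 30.7, 5.21 and 4.58 CPM in the same order. LGR5 (1.35, 28.6 and 16.3 CPM) and DKK1 (1.35, 30.2 and 6.87 CPM) went the other way there. DKK3 was high in neuron-like cells, at 155 CPM at 15 days (144 to 165) and 78.8 CPM at 45 days (69.1 to 89.5), and these cells held 40.0% and 14.9% of its library's UMIs. Without neuron-like cells its log2 ratio at 15 days against no induction was 0.98, under the limit. In mural-like cells DKK1 stood at 31.2 CPM in the uninduced library, 83.6 CPM after 15 days and 19.5 CPM after 45 days, and FRZB at 67.2, 158 and 87.7 CPM. Of 7 genes of the set at 10 CPM in these cells, 0 were higher and 1 (APCDD1) was lower at 45 days against no induction, beside 2.59% and 2.39% of genes. At 15 days against no induction, 2 (DKK1, FRZB) were higher and 2 (SFRP2, APCDD1) were lower, beside 2.42% and 2.29%. At 45 days against 15 days, SFRP2 was higher and DKK1 lower, beside 0.364% and 0.478%. LGR5 in the epithelial-like cluster 11, led by the basal keratin KRT15, was at 1.48 CPM in the uninduced library, 35.0 CPM after 15 days and 22.2 CPM after 45 days.

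Across 68 groups of cells (cluster and library, at least 50 cells), the genes whose log2(CPM + 1) was most like each member were named from 8023 genes. These Pearson correlations are a description, since the groups of 1 library share that library and its depth. DKK1 was most like MSX1, a homeobox gene of limb and craniofacial mesenchyme (r = 0.82), and DACT1 most like TWIST2 (r = 0.86) and PTH1R. FRZB was most like BGN, the proteoglycan biglycan (r = 0.85), SFRP2 like TWIST1 (r = 0.79), LGR5 like TLE4 (r = 0.75) and RSPO3 like NPW (r = 0.79). DKK2 was most like ZFHX4-AS1 (r = 0.85), SFRP1 like SOCS1 (r = 0.82), APCDD1 like RFTN2 (r = 0.80) and DKK3 like MAP1B, a microtubule protein of neurons (r = 0.75). Among the 45 pairs within the set, SFRP1 with FRZB was the highest (r = 0.76) and DKK2 with DKK3 the lowest (r = -0.23).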

How the data were processed

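The deposited values are raw counts of UMIs per gene and barcode, made by the authors from Chromium Single Cell 3′ v3 libraries per the labels' protocols, with Cell Ranger 3.0.0 and GRCh38 per the submitters' processing notes; the matrix headers name software version 3.0.1. Their gene annotation is not given in the sources used here; coordinates are from GENCODE 29 (1-based), in which 33484 of 33538 identifiers were found. Free RNA can add UMIs to any droplet.

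The filter asked for 1000 UMIs, 500 genes and no more than 20% mitochondrial UMIs per barcode (passed by 86.6% without induction, 88.9% at 15 days, 89.6% at 45 days). The cells with the most simulated doublets around them were removed at 0.8% per 1000 cells, so some doublets remain. Cells were clustered together without integration and without the members or other WNT genes (igraph 0.11.9, leidenalg 0.10.2, resolution 1.0), giving 28 clusters. Clusters were called X-like from at least 3 markers of a list; clusters left over were called mesenchymal-like on markers against the non-mesenchymal classes. These scoring rules were set after the data were seen. Clusters 24 and 26, with liver or stem cell genes, have no class name.

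UMIs were summed per library, class or cluster (Python 3.11.15, numpy 2.4.6, scipy 1.17.1). Intervals are Poisson for sums, conditional binomial for folds and Clopper-Pearson for shares; a sum of 0 was given a limit of 3 counts. Only the 2-fold count and the fold intervals were tried on simulated whole-library sums, which held counting error alone. Clustering, class names, doublet removal, thinning and the split into weights and level were not simulated. Named genes are the 10 members, WNT list genes at least 2-fold apart (up to 4 per list, direction and comparison) with each list's highest gene, and the genes most like each member (3 were ranked); others, such as LEF1 and CCND1 by class, were chosen after their values were seen. The members and lists were chosen with earlier results of these data known.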

Additional observations from a re-analysis of the deposited data

Results flagged for a closer look

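Among named classes other than haematopoietic-like cells, the background for free RNA, there were 3 genes for which the log2 ratio of CPM + 1 was at least 1 in 1 cell class and at most -1 in another under the same comparison. With 1 library per group these differences between classes were not tested. FRZB at 15 days against no induction was 1.22 in mural-like cells and -2.35 in epithelial-like cells. Under other clusterings or scalings its mural-like ratio ran from 0.57 to 1.15. RSPO3 at 15 days against no induction was 1.43 in mesenchymal-like cells and 1.25 in cycling-like cells, but -1.65 in epithelial-like cells. SFRP2 at 45 days against 15 days was 1.21 in mesenchymal-like, 1.1 in mural-like, 1.49 in cycling-like and 3.94 in epithelial-like cells, but -1.29 in neuron-like cells. Epithelial-like cells lay in different clusters by library, with cluster 21 holding 260 uninduced cells, 12 after 15 days and 38 after 45 days. No SFRP2 UMI was counted in epithelial-like cells at 15 days. Of the 72 SFRP2 UMIs in neuron-like cells at 15 days, 18 came from 1 cell. With haematopoietic-like cells counted too, DKK1 at 15 days against no induction (-1.81 there, from 5 and 10 UMIs, and 1.90 in mesenchymal-like cells) and SFRP1 at 45 days against 15 days (1.15 there, from 7 and 4 UMIs, and -1.52 in cycling-like cells) also went both ways.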

How the results depend on the processing

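Under 9 alternatives (other scaling, all barcodes, other floors, no neuron-like cells, no liver-type clusters, mesenchymal-like cells only, no doublet removal, and the 10 highest cells left out, the last chosen after seeing the data) all 30 log2 ratios of the members kept their sign. The other floors leave each CPM as it was, so they could not change a sign. Counts of members at least 2-fold apart ran from 4 to 6 at 45 days and from 5 to 8 at 15 days against no induction. At 45 days against 15 days, where it was 2, it ran from 1 (a floor of 50 CPM and 5 CPM added) to 3. Single genes crossed the limit: RSPO3 at 15 days against no induction reached it in 5 alternatives (up to 1.43 in mesenchymal-like cells), DKK2 at 45 days against 15 days, under 10 CPM in both whole libraries (1.22), was counted in 5 (up to 1.33), DKK3 at 45 days in mesenchymal-like cells (1.33) and FRZB at 45 days with median-of-ratios scaling (-1.05), while without neuron-like cells SFRP2 at 45 days (-0.99) and DKK3 at 15 days (0.98) no longer did. The causes were not tested. With the floor of 50 CPM, LGR5 was no longer counted in either comparison with no induction, as it reached 36.5 CPM at most. DKK3 at 15 days (45.7 CPM) and SFRP2 at 45 days against 15 days (48.9 CPM) were left out in the same way. With that floor 0 genes of the set were higher at 45 days against no induction. Median-of-ratios scaling moved all log2 ratios by -0.15 at 45 days and -0.21 at 15 days against no induction, and turned the split of all genes to 175 higher and 241 lower at 45 days (233 and 179 by CPM) and to 443 and 194 at 15 days (596 and 144 by CPM). In mesenchymal-, mural- and endothelial-like cells, the classes for which this was run, all 37 log2 ratios of at least 1 in size, with no floor, kept their sign in 4 other clusterings or scalings. Some of them fell under the limit there. In mural-like cells these included FRZB at 15 days (1.22, down to 0.57) and SFRP2 at 45 days against 15 days (1.10, down to 0.93). In mesenchymal-like cells they included APCDD1 (-1.30, to -0.96) and DACT1 (-1.05, to -0.96) at 15 days. DKK2 there at 45 days against 15 days (1.05, to 0.83) was another. Single mural-like levels moved with the clustering, such as SFRP2 without induction at 137 CPM when all variable genes were used, against 35.6 CPM. Shares of cells with a UMI, thinned to 2000 UMIs, kept their order over libraries for 8 of the 10 genes, the exceptions being DKK1 and LGR5. No paired analysis was possible because each group has 1 library.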

Other observations

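In cycling-like cells DKK1 stood at 84.0 CPM in the uninduced library, 354 CPM after 15 days and 123 CPM after 45 days. SFRP1 stood there at 321, 215 and 74.1 CPM, and DKK2 at 55.1, 6.73 and 10.8 CPM in the same order. A few cells carry much of a low total: at 15 days 48 of the 58 DKK1 UMIs of epithelial-like cells came from 1 cell.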
